A study of Mus musculus with 8 samples.

Results

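The nuclear genes of the mitochondrial respiratory chain were described in mouse mammary cells that had or lacked C/EBPb, a leucine zipper transcription factor needed for normal mammary development. The set was chosen by name: 48 genes for subunits of complex I (29 Nduf genes), complex II (4 Sdh genes), complex III (6 genes, Uqcr and Cyc1), complex IV (8 Cox genes) and the electron carrier cytochrome c (Cycs). A value was obtained for 46 of the 48, out of 18194 genes with a probe set of their own. The only probe set of Ndufs6 also lists Ndufs6b, and Cox7b is not named in the probe annotation used here, so both were left without a value.

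Cells were dissociated from the glands of wildtype mice (WT) and of germline C/EBPb-/- mice (KO), in which every cell lacks the gene, and sorted into a LIN-CD24+CD29hi gate (CD29hi) and a LIN-CD24hiCD29lo gate (CD29lo). LIN- means that the sort was set to leave out cells carrying blood and endothelial surface markers. The 4 groups, WT CD29hi, KO CD29hi, WT CD29lo and KO CD29lo, had 2 Affymetrix arrays each, 8 in all. Glands came in 2 paired sets with 10 mice per group, so each array is a pool of mice; the labels give neither strain nor age. Amplified RNA was hybridised, and the deposited values are log2 signals, so a difference of 1 is a doubling.

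The respiratory chain passes electrons from NADH (through complex I) or succinate (through complex II) to ubiquinone, then through complex III and cytochrome c to complex IV, which reduces oxygen. Complexes I, III and IV pump protons as they do so, and ATP synthase uses the resulting gradient. A few subunits are encoded by mitochondrial DNA; all the genes described here are nuclear, and their proteins are imported. In the mammary gland, basal and luminal epithelial cells are the 2 layers of the ducts, and the CD29hi and CD29lo gates are used to enrich for them.

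Promoters of respiratory chain genes are known for binding sites of the factors NRF1, GABPA (an ETS factor) and YY1, and C/EBPb binds its own motif. RefSeq promoter windows (GRCm38.p6, 250 bases before to 50 bases after the start) were matched for 36 of the 46 genes, as 38 windows. The 4 printed here belong to genes that the later results turn on: Sdhd and Ndufa7, called between the gates, and Ndufa5 and Ndufs3, whose KO values lay below WT in both gates. These 4 windows hold a motif match before the start, which is not typical of such genes. Cycs, Ndufa12, Ndufb8 and Ndufb11 had no match, and Sdhb, Ndufs8, Uqcrc1 and Ndufa9 had matches only after the start. Each printed sequence is the 250 bases before the start, 5′ to 3′ on the gene's strand, with motif matches on either strand in capitals.
Sdhd, chr9:50603850-50604099, minus strand: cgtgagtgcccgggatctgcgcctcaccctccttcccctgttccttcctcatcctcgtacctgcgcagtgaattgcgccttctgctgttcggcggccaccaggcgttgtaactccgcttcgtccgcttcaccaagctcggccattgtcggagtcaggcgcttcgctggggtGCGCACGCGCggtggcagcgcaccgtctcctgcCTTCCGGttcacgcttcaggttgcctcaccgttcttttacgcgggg
Ndufa7, chr17:33824322-33824571, plus strand: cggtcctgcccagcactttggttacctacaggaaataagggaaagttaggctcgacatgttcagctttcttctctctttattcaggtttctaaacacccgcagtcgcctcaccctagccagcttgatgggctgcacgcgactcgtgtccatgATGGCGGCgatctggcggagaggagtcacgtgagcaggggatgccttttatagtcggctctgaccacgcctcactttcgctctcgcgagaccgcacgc
Ndufa5, chr6:24527691-24527940, minus strand: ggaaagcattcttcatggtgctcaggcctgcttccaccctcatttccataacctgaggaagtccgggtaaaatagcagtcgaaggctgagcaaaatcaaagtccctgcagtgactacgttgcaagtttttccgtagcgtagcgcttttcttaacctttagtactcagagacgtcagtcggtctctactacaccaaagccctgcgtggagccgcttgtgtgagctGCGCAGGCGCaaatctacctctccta
Ndufs3, chr2:90904722-90904971, minus strand: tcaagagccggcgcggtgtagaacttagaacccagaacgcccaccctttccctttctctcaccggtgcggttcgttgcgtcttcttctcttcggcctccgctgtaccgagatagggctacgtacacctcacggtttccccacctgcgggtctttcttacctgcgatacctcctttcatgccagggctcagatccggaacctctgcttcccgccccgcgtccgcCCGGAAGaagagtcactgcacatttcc

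The matches in these windows were to the NRF1-like motif (GCGCA, any base, GCGC) in Sdhd and Ndufa5, to CCGGAAG (the ETS core that GABPA binds) in Sdhd and Ndufs3, and to ATGGCGGC (YY1) in Ndufa7. In Sdhd the NRF1-like match began 79 bases before the start and the ETS match 46 bases before it. Over the whole windows and both strands, the NRF1-like motif was found in 9 of 38 windows of these genes, 23.7%, and in 4.6% of all 32851 windows. The full NRF1 palindrome (GCGCA followed at once by TGCGC), which the looser motif includes, was found in Cox6a1 and Uqcrc1, 5.26% of windows against 0.971%. CCGGAAG was in 18.4% against 8.86%, and ATGGCGGC in 15.8% against 2.24%. Ndufa5 and Ndufa7 each have 2 overlapping windows, so the NRF1-like site of Ndufa5 and the ATGGCGGC site of Ndufa7 were counted in both. By gene, the NRF1-like motif was in 8 of 36 and ATGGCGGC in 5 of 36. The C/EBP motif TTGCNNAA was in 13.2% against 10.8%, in the genes Cox6a1, Ndufa5, Ndufs5, Sdha and Uqcrfs1. The Ndufa5 match to it lies in another, downstream window of that gene and not in the sequence above. These are letter matches and describe the windows alone.

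All 46 genes were above background in all 8 arrays, background being the 95th percentile of 27 bacterial control probe sets (3.835 to 4.41 per array). Their log2 signals ran from 8.18 to 12.68. The median of the genes' means was 10.96, against 7.46 over the 14598 genes that passed the filter on low values, which all 46 passed. The spread between replicate arrays was small for these genes, with a median residual SD of 0.14 against 0.35 for all genes tested and 0.206 for the 4917 genes at least as bright as the dimmest of them. A difference of given size was thus measured more tightly here than for most genes.

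The sort and the genotype were checked first. Basal markers were higher in CD29hi (12 of 13 called, median difference 4.66), as Krt5 shows with 12.39 to 12.68 in the 4 CD29hi arrays and 6.75 to 7.66 in the 4 CD29lo arrays. Luminal markers were lower there (15 of 16 called, median -2.58). Markers of fibroblasts, a cell type outside both labels, were also lower in CD29hi (10 of 12 called, median -3.92), and they varied within CD29lo: the mean over the 12 genes was 7.44 and 10.51 in the KO arrays and 9.37 and 11.12 in the WT arrays, against 5.2 to 6.79 in CD29hi. The fibroblast markers Col1a1, Col1a2, Pdgfra and Dcn read higher in replicate 2 than in replicate 1 in all 4 groups. Col1a1 read 5.19 and 7.04 in CD29hi of KO and 4.0 and 6.63 in CD29hi of WT. Of 6 adipocyte markers tested, 2 were called lower in CD29hi (median of the list 0.215): Cidea, at 2.75 to 3.8 in CD29hi and 5.91 to 7.36 in CD29lo, and Retn, at a difference of -1.12. Adipoq, an adipocyte hormone, stood at 2.58 to 4.51, at or near background, while Fabp4, a fatty acid binding protein that other cell types also make, stood at 10.94 to 12.78 in all 8 arrays. Of 7 endothelial markers, 5 to 7 were above background in each array (means of the list 5.03 to 7.19). Of 9 measured blood cell markers, 3 to 6 were (means 3.42 to 4.25). Cebpb was 11.83 to 12.25 in WT and 8.6 to 9.38 in KO arrays, so KO minus WT came to -3.11 ± 0.274 (SE; limma adjusted p = 0.0177) for CD29hi and to -2.94 (0.0271) for CD29lo. The KO arrays thus still read above background for Cebpb, and the source of that remaining signal was not tested.

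The first comparison was between the gates, CD29hi minus CD29lo, averaged over both genotypes, with 4 arrays on each side. The chain did not move as a block: 6 of the 46 genes were higher in CD29hi (12.2% of all genes were), 3 were lower (10.8% of all genes), and each complex except cytochrome c alone held genes on both sides of 0. Cycs, Sdhb, Uqcrc1, Ndufs8, Uqcrq and Ndufa12 were higher, by 1.4 to 1.76 times. Cox4i1, Ndufa7 and Sdhd were lower, by 1.25 to 1.95 times. A gene is called where limma's p, adjusted by Benjamini-Hochberg over all 14598 genes tested, is under 0.05. The 9 called genes are 19.6% of the 46, against 22.9% of all genes and 29.2% of the genes at least as bright, so being called between the gates was no more frequent here than elsewhere. The median difference was 0.12, against 0.01 for all genes and 0.08 for the bright ones. In these sorted bulk samples, fewer cells of a type and less RNA per cell cannot be told apart. Fibroblast markers and Cidea moved with the gate, and their part in these differences was not tested.

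**Figure D1:**
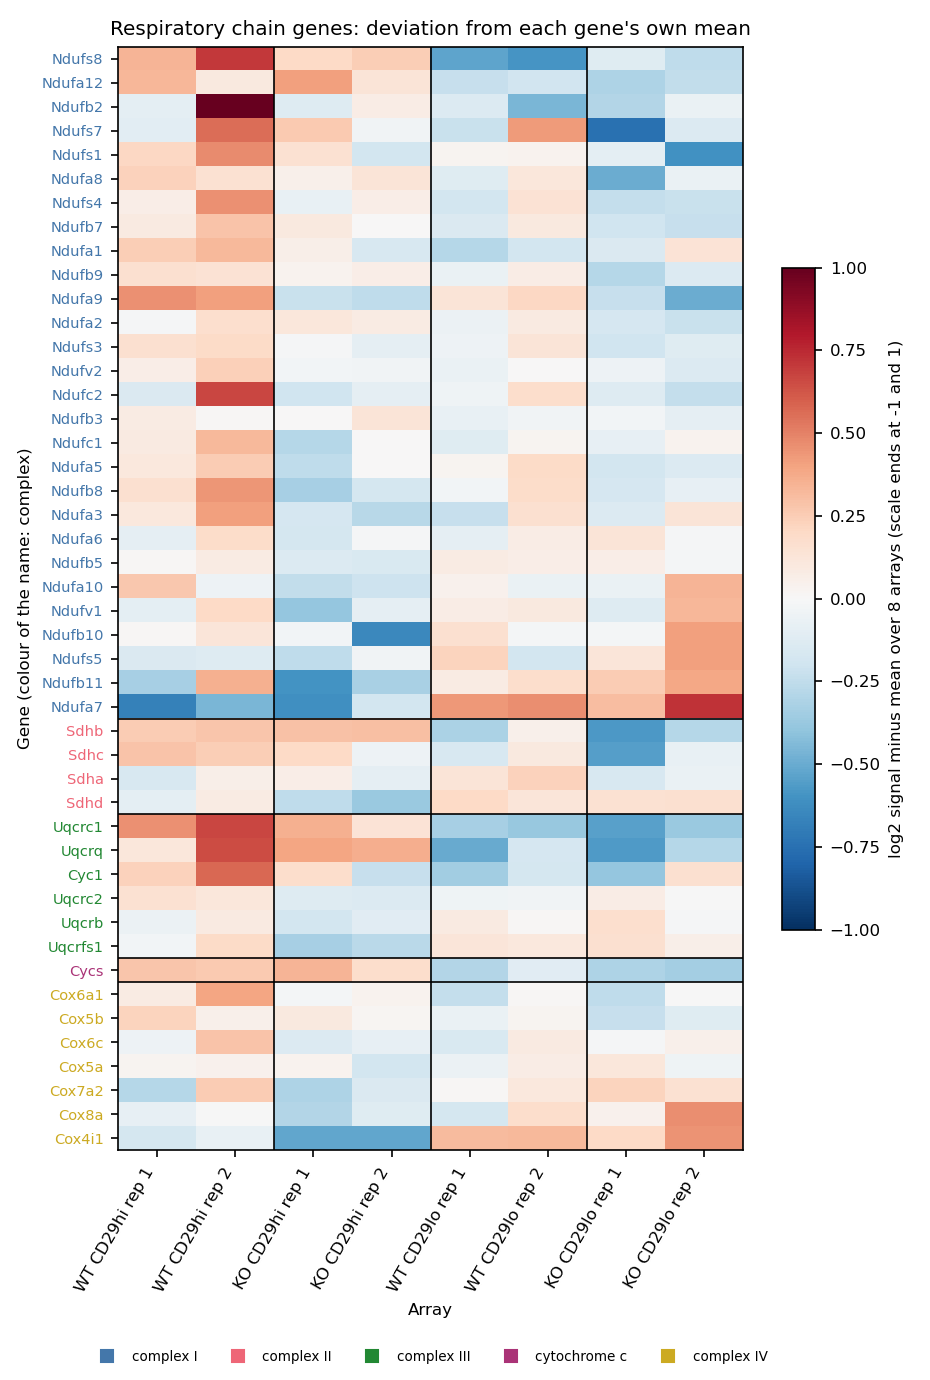
Each row is 1 of the 46 respiratory chain genes and each column 1 array; colour is the log2 signal minus that gene's mean over the 8 arrays, red above and blue below. Rows are grouped by complex and ordered by the difference between the gates, and the second WT CD29hi array is above the gene's mean in 41 of 46 rows.

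Complex I, the NADH dehydrogenase, gave 3 called genes of 28, with a median difference of 0.12. Ndufs8, a core iron-sulfur subunit on the path to ubiquinone, read 9.45 and 9.82 in CD29hi of WT, 9.31 and 9.36 in CD29hi of KO, 8.58 and 8.52 in CD29lo of WT, and 8.99 and 8.86 in CD29lo of KO. All 4 CD29hi arrays were above all 4 CD29lo arrays, a difference of 0.75 ± 0.16 (SE; limma adjusted p = 0.0121). Its 6 probe sets gave 0.68 to 0.77, although probe sets of a gene can share probes.

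Ndufa7, a small accessory subunit of the same complex, went the other way. It read 9.0 and 9.22 in CD29hi of WT and 9.06 and 9.49 in CD29hi of KO, against 10.11 and 10.14 in CD29lo of WT and 9.98 and 10.40 in CD29lo of KO. The groups did not overlap, the difference was -0.96 ± 0.167 (limma adjusted p = 0.00455), the most negative of the 46, and all 5 of its probe sets lay between -1.06 and -0.75. Ndufa12, an accessory subunit of the NADH-binding arm, read 10.62 to 10.93 in CD29hi and 10.21 to 10.33 in CD29lo, a difference of 0.49 ± 0.117 (adjusted p = 0.0189). Its call was lost without KO CD29hi replicate 1 (adjusted p = 0.0864), WT CD29hi replicate 1 (0.063) or WT CD29lo replicate 1 (0.0591). The Ndufa12 value rests on a probe set of shared sequence. Without such probe sets the difference was 0.2 (limma adjusted p = 0.723), and averaging every probe set of the gene gave 0.36 (0.119). The probe set left in the first of these had a mean log2 signal of 3.82 and was above background in only 3 arrays. The further shared-sequence probe sets of Ndufa12 gave 0.39 and 0.36.

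Complex II, succinate dehydrogenase, was split within its 4 subunits. Sdhb, the iron-sulfur subunit, read 11.60 and 11.62 in CD29hi of WT and 11.64 and 11.65 in CD29hi of KO, against 11.03 and 11.40 in CD29lo of WT and 10.77 and 11.06 in CD29lo of KO, a difference of 0.56 ± 0.11 (limma adjusted p = 0.0081). The CD29hi arrays of this gene agreed within 0.05, while the CD29lo arrays spread more widely and stayed below them. Sdhd, a membrane anchor subunit, read 11.21 and 11.39 in CD29hi of WT, 11.05 and 10.94 in CD29hi of KO, 11.51 and 11.43 in CD29lo of WT, and 11.46 and 11.47 in CD29lo of KO. Sdhd was lower in all CD29hi arrays, by 0.32 on the log2 scale (limma difference -0.32 ± 0.0847, adjusted p = 0.0284), with its other probe set at -0.36. The Sdhd call was lost when any 1 array other than WT CD29hi replicate 2 was left out (highest adjusted p = 0.0939, without WT CD29lo replicate 1). Sdhc, the other anchor, gave 0.34 (adjusted p = 0.124), and Sdha, the flavoprotein that oxidises succinate, gave -0.06 (adjusted p = 0.656).

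In complex III, the cytochrome bc1 complex, 2 of 6 genes were called, both higher in CD29hi. Uqcrc1, a large core protein, read 9.18 and 9.39 in CD29hi of WT and 9.08 and 8.86 in CD29hi of KO, against 8.39 and 8.34 in CD29lo of WT and 8.18 and 8.35 in CD29lo of KO. This gave the highest positive difference of the 46 genes, 0.81 ± 0.169 (limma adjusted p = 0.0107, or 0.0538 without KO CD29hi replicate 1). Uqcrq, a small subunit, read 9.89 and 10.43 in CD29hi of WT, 10.17 and 10.14 in CD29hi of KO, 9.27 and 9.61 in CD29lo of WT, and 9.21 and 9.49 in CD29lo of KO, a difference of 0.76 ± 0.172 (adjusted p = 0.0147). Uqcrq rests on 1 probe set whose sequence is shared among genes, and its other 3 probe sets were not above background in every array. The difference was 0.32 (adjusted p = 0.729) without that probe set and 0.24 (0.659) with the mean of all 4. Its call was also lost without KO CD29hi replicate 1 (adjusted p = 0.0572) or WT CD29lo replicate 1 (0.0532). Uqcrfs1, the Rieske iron-sulfur protein, gave -0.22 (adjusted p = 0.184), and Uqcrc2, the second core protein, gave 0.005 (adjusted p = 0.976).

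Cytochrome c and complex IV showed opposite called differences. Cycs, whose protein carries electrons between complexes III and IV, read 12.10 and 12.08 in CD29hi of WT and 12.16 and 12 in CD29hi of KO, against 11.53 and 11.71 in CD29lo of WT and 11.51 and 11.48 in CD29lo of KO. The difference was 0.53 ± 0.0755 (limma adjusted p = 0.0018), and its 3 probe sets above background in all arrays gave 0.3 to 0.53. With the mean of all its probe sets Cycs gave 0.36 and was not called (adjusted p = 0.161). Cox4i1, the broadly expressed form of a regulatory subunit of cytochrome c oxidase, read 11.50 and 11.60 in CD29hi of WT, 11.16 and 11.16 in CD29hi of KO, 11.99 and 12 in CD29lo of WT, and 11.88 and 12.13 in CD29lo of KO. Its difference of -0.64 ± 0.0808 had the lowest adjusted p of the 46 genes (limma, 0.000903), and it was the only one of the 7 measured complex IV genes that was called. The other 6 ranged from -0.26 for Cox8a to 0.24 for Cox6a1.

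**Figure D2:**
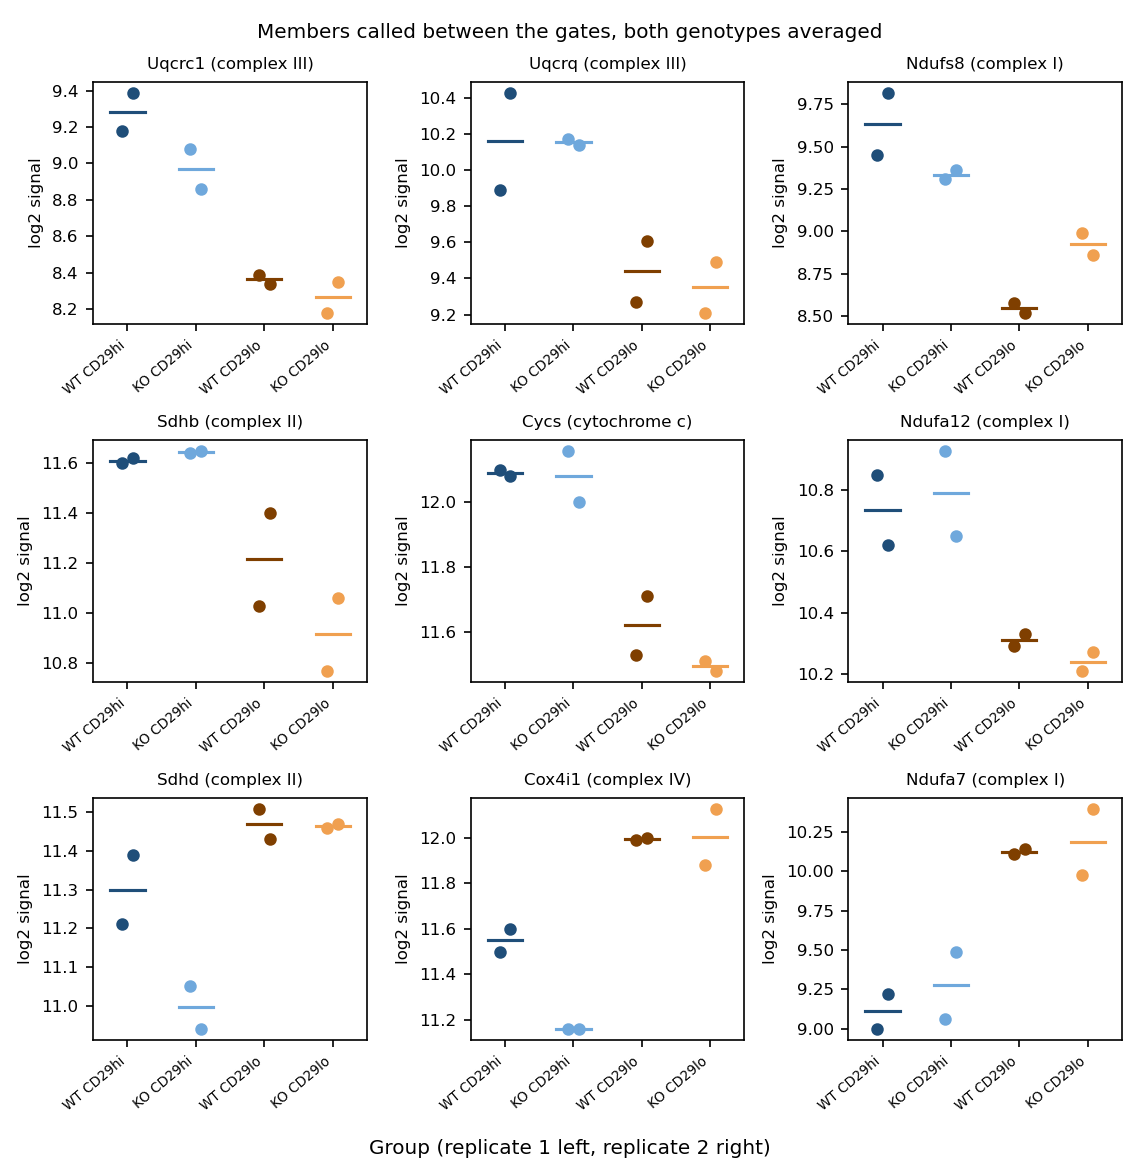
Log2 signal of the 9 genes called between the gates, by group; dots are the 2 arrays of a group (replicate 1 left), bars their mean, and each panel has its own axis, which does not start at 0. In all panels the 4 CD29hi arrays lie on one side of the 4 CD29lo arrays.

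Within 1 genotype the same contrast has 2 arrays a side. In WT, 3 of 46 genes were called, 6.52% against 8.19% of all genes: Ndufs8 at 1.08 (limma adjusted p = 0.0226), Cycs at 0.47 (0.0319) and Ndufa7 at -1.01 (0.0354). In KO, 6 were called, 13.0% against 14.1%. These were Cycs at 0.58 (limma adjusted p = 0.00948), Sdhb at 0.73 (0.0178), Cox4i1 at -0.84 (0.00272), Sdhd at -0.47 (0.035), Ndufa7 at -0.92 (0.037) and Ndufb11, a membrane arm subunit of complex I, at -0.78 (0.0412). Each of the 3 WT calls was lost when any 1 of the 4 WT arrays was left out (lowest adjusted p = 0.0523, for Ndufs8 without WT CD29hi replicate 1). With the mean of all probe sets, Cycs in WT fell to 0.13 (adjusted p = 0.806), and Ndufs8 (0.0551) and Ndufa7 (0.0683) were not called. The chosen probe sets of Ndufs8 and Ndufa7 are of shared sequence. Without such probe sets their WT differences were 0.69 (limma adjusted p = 0.177) and -0.95 (0.178). Of the KO calls, only Cox4i1 was kept whichever 1 array was left out (adjusted p up to 0.0258). Cycs was lost without KO CD29hi replicate 1 in both genotypes (adjusted p = 0.0858 in KO and 0.0505 in WT), and Sdhb without either KO CD29hi array or KO CD29lo replicate 1 (up to 0.0995). Ndufa7 was lost without any 1 array other than KO CD29lo replicate 1 (up to 0.232), and Sdhd and Ndufb11 without any 1 array other than those of WT CD29hi (up to 0.163 and 0.226).

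Ndufb11 was called in KO and not in WT, where it gave -0.12 (limma adjusted p = 0.796). It read 11.36 and 12.05 in CD29hi of WT, 11.10 and 11.37 in CD29hi of KO, 11.78 and 11.87 in CD29lo of WT, and 11.95 and 12.08 in CD29lo of KO. The 2 WT CD29hi arrays lay on either side of both WT CD29lo arrays, and the difference between the genotypes' gate effects, -0.66 ± 0.294, did not pass (adjusted p = 0.961). For Cox4i1 that difference was -0.4 ± 0.162 (adjusted p = 0.961). No gene of the 46 passed this interaction test (0.0% of all genes did), and 2 had an unadjusted p under 0.05, against 4.95% of all genes.

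The WT and KO gate differences come from separate arrays. Of the 46 genes, 36 had the same sign in both, 78.3% against 73.4% of all genes and 79.1% of the bright genes. Across these genes the differences gave a Pearson r of 0.73, against 0.76 across all genes and 0.86 across the bright genes, and genes are not independent replicates. The CD29hi and CD29lo arrays did not overlap, in the same direction, in both genotypes for 16 genes (34.8% against 32.2% of all genes and 39.1% of the bright genes). Of these, 13 were higher in CD29hi, namely Ndufa8, Ndufa12, Ndufb3, Ndufb9, Ndufs3, Ndufs8, Ndufv2, Sdhb, Sdhc, Uqcrc1, Uqcrq, Cycs and Cox5b, and 3 were lower, namely Ndufa7, Sdhd and Cox4i1.

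**Figure D3:**
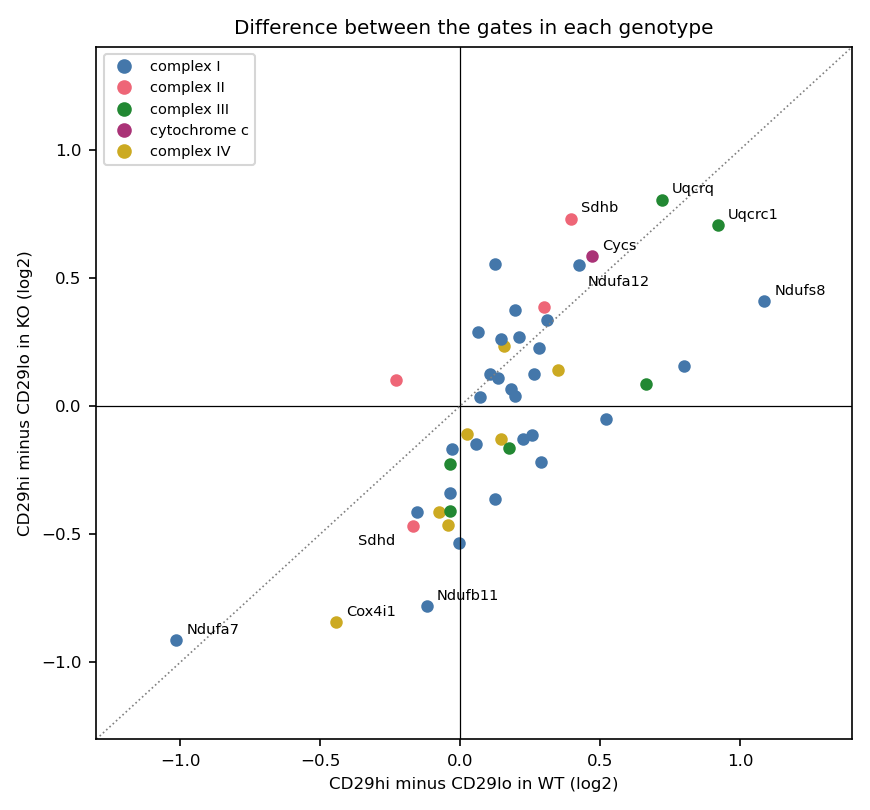
Each point is 1 of the 46 genes: the CD29hi minus CD29lo difference in WT (x axis, log2) against the same difference in KO (y axis, log2), coloured by complex; the dotted line marks equality and the called genes are named. Ndufa7 and Cox4i1 lie at the lower left, and Uqcrc1, Uqcrq and Ndufs8 at the upper right.

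The second comparison, KO against WT, asks what loss of C/EBPb does to these genes in each gate. In CD29hi no gene of the 46 was called by limma, with 0.0137% of all genes called, and 8 had an unadjusted p under 0.05 (7.84% of all genes did). The estimates leaned low: 40 of 46 were below 0 and 6 above (47.9% of all genes and 44.5% of the bright genes were above 0). Their median was -0.225, against -0.015 for all genes and -0.03 for the bright genes. In 26, both KO arrays were below both WT arrays, against 21.2% of all genes and 1133 of the 4917 bright ones. Sdhb was the 1 gene with both KO arrays above both WT arrays (18.3% of all genes), by 0.04. By complex the medians were -0.277 for complex I, -0.08 for complex II, -0.29 for complex III and -0.21 for complex IV, and Cycs stood at -0.01. The lean rested in part on WT CD29hi replicate 2: in that array the 46 genes stood at a median of 0.242 above their own means, where all genes stood at 0.011 and the other 7 arrays at -0.134 to 0.082. The median difference was -0.12 without that array and -0.33 without WT CD29hi replicate 1.

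The intervals bound only large changes in single genes. Changes under 2-fold, the size of every gate difference called on average over the genotypes, are not excluded by them. In CD29hi the 95% interval of 43 of the 46 genes lay within a 2-fold change in either direction, in CD29lo that of 45, and for the mean over both gates that of all 46 (from -0.9 to 0.52 at the widest). In CD29hi the same held for 5306 of all 14598 genes and for 3961 of the 4917 bright ones. In CD29lo it held for 5291 and 3987. These are single-gene limma intervals, not adjusted for the number of genes.

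In CD29lo also no gene was called by limma (0.0137% of all genes were), and 1, Ndufa9, had an unadjusted p under 0.05, against 6.68% of all genes. The estimates were balanced, with 20 above 0 (43.6% of all genes and 35.3% of the bright genes were) and 25 below. Their median was -0.012, against -0.06 for all genes and -0.075 for the bright genes. Without KO CD29lo replicate 2 the median was -0.112. KO lay below WT without overlap in 14 genes and above it in 5, against 19.6% and 14.7% of all genes. All 4 complex II genes were below 0, with Sdhb at -0.3 ± 0.156 (adjusted p = 0.771), Sdha at -0.29 (0.749), Sdhc at -0.28 (0.839) and Sdhd at -0.005 (0.993). For Sdha the direction turned to 0.17 when all its probe sets were averaged. A probe set of Sdha above background in only 5 arrays gave 1.43, and its others gave -0.29 to -0.18. Fibroblast markers in CD29lo had a median KO minus WT difference of -1.31, with the KO and WT arrays overlapping in all 12 genes, and their part in these values was not tested.

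**Figure D4:**
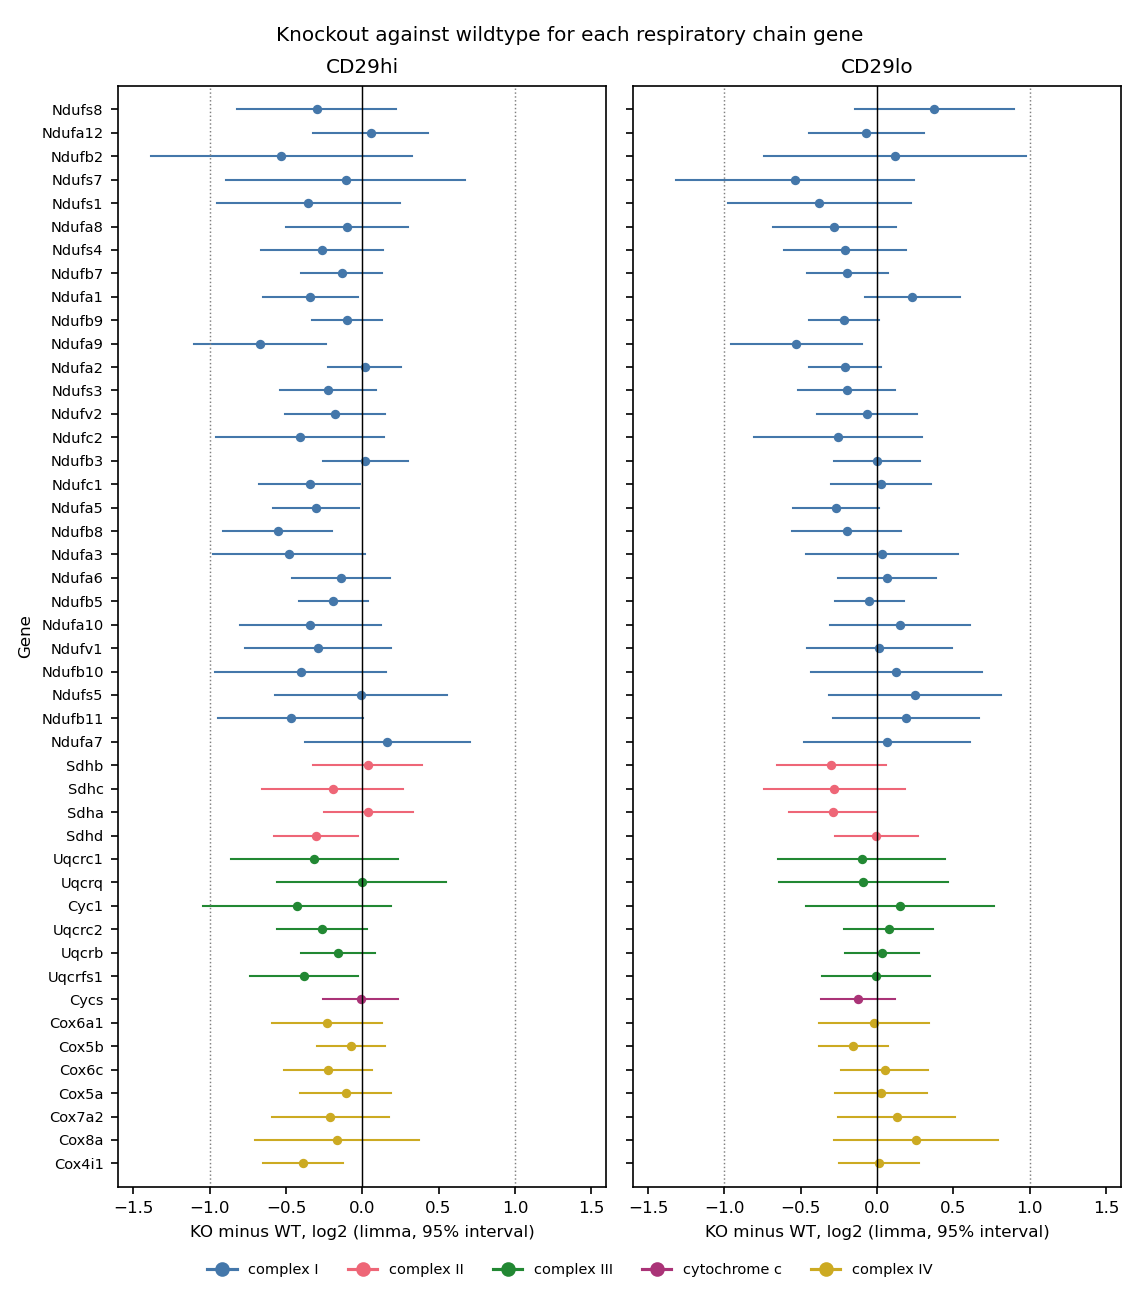
KO minus WT difference (log2) of each of the 46 genes in CD29hi (left) and CD29lo (right), with limma's 95% interval, coloured by complex; dotted lines mark a 2-fold change in either direction. Most points lie left of 0 in CD29hi and around 0 in CD29lo.

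Averaged over both gates, which uses the same arrays again, 41 of 46 differences were below 0 and 5 above. Of all genes 43.9% were above 0, and of the bright genes 36.2%. The median was -0.135, against -0.045 for all genes and -0.06 for the bright genes. None was called by limma (0.0685% of all genes were), and 4 had an unadjusted p under 0.05, against 9.27% of all genes. In 3 genes the 4 KO arrays lay below the 4 WT arrays without overlap (2.0% of all genes), and in none did they lie above (1.24%). All 3 are of complex I, which holds 28 of the 46 genes.

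The estimate was below 0 in both gates for 21 of the 46 genes, from all 4 complexes and cytochrome c. It was so for 4543 of all 14598 genes and for 1818 of the 4917 bright ones. The sign was the same in both gates for 47.8% of the 46, against 54.4% of all genes. In 6 of the 21, both KO arrays lay below both WT arrays, without overlap, in each gate taken on its own. These 6 encode complex I subunits, as do 28 of the 46 genes: Ndufa5, Ndufa9, Ndufb8, Ndufb9, Ndufs1 and Ndufs3. They are 13.0% of the 46, with none in the upward direction, where 9.41% of all genes were free of overlap in the same direction, upward or downward, in both gates. Ndufa9, an accessory subunit at the joint of the membrane and matrix arms, had the largest difference. It read 10.17 and 10.12 in CD29hi of WT, 9.49 and 9.46 in CD29hi of KO, 9.84 and 9.92 in CD29lo of WT, and 9.48 and 9.22 in CD29lo of KO. Every KO array was below every WT array, and the difference was -0.67 ± 0.188 in CD29hi (limma adjusted p = 0.398), -0.53 ± 0.188 in CD29lo (0.659) and -0.60 ± 0.133 on average (0.228). Over all settings tried, the adjusted p of that average stayed between 0.18 and 0.565, so no call was reached.

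Ndufb8, a membrane arm subunit, read 11.05 and 11.33 in CD29hi of WT, 10.56 and 10.71 in CD29hi of KO, 10.86 and 11.07 in CD29lo of WT, and 10.72 and 10.81 in CD29lo of KO. It gave -0.55 for CD29hi (limma adjusted p = 0.397) against -0.2 for CD29lo (0.846), and its second, dimmer probe set gave an average of 0.29 where the chosen one gave -0.38. Ndufa5, a subunit of the matrix arm, read 11.96 and 12.11 in CD29hi of WT, 11.60 and 11.86 in CD29hi of KO, 11.88 and 12.05 in CD29lo of WT, and 11.67 and 11.72 in CD29lo of KO. Both probe sets of Ndufa5 were lower on average, at -0.29 and -0.35 (limma adjusted p of the first = 0.358). Ndufs1, the largest core iron-sulfur subunit, gave an average of -0.37 ± 0.185 (adjusted p = 0.601), Ndufs3, another core subunit, -0.21 ± 0.0973 (0.558), and Ndufb9, of the membrane arm, -0.16 ± 0.0705 (0.548).

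**Figure D5:**
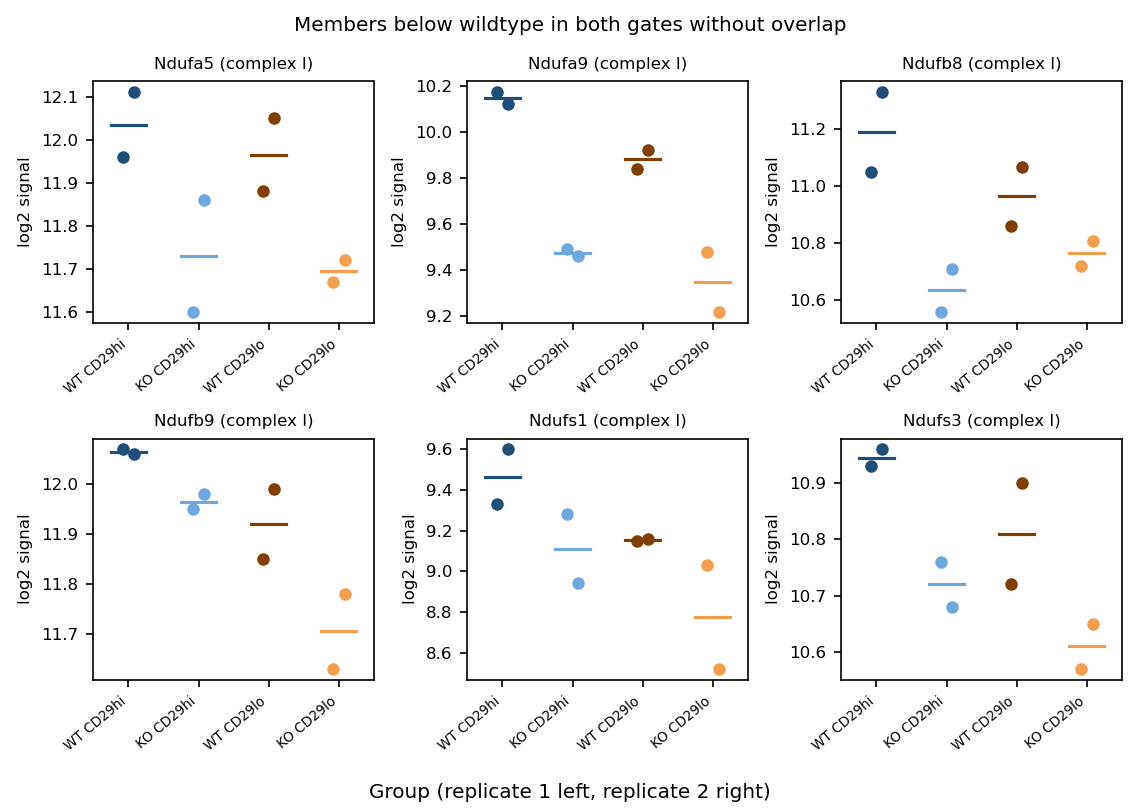
Log2 signal, by group, of the 6 complex I genes whose KO arrays lay below the WT arrays in each gate; dots are arrays (replicate 1 left), bars the group means, and each panel has its own axis, which does not start at 0. Ndufa9 shows the widest gap, with KO at 9.22 to 9.49 and WT at 9.84 to 10.17.

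Outside complex I, the lowest estimates in CD29hi were Cyc1 (cytochrome c1), at -0.43 ± 0.268 (limma adjusted p = 0.797), Cox4i1 at -0.39 ± 0.114 (0.434) and Uqcrfs1 at -0.38 ± 0.154 (0.616). None of these had a negative counterpart of that size in CD29lo, where they gave 0.15, 0.01 and -0.005. The interaction, KO minus WT in CD29hi minus the same in CD29lo, was not called for any of these 3 genes (limma adjusted p = 0.961 for each).

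The rest of the energy pathway was read from lists of neighbouring functions. In KO against WT, none of these lists held a called gene in either gate by limma. The lean below 0 in CD29hi was shared with other lists: ATP synthase had 17 of 19 below 0 (median -0.155), glycolysis 15 of 15 (median -0.27), the TCA cycle 13 of 17 (-0.11) and mitochondrial ribosomal proteins 43 of 63 (-0.15). Cytosolic ribosomal proteins had 18 of 22 below 0 at a median of -0.035, and assembly factors of complexes I to IV had 19 of 39 (0.005).

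Between the gates, averaged over genotypes, other nuclear subunits of complexes I to IV had 0 higher and 4 lower of 16 called (25%, against 22.9% of all genes; median -0.304 against 0.012). These were Cox7a2l at -0.36, a factor that joins complexes III and IV, Uqcr10 at -0.56, Uqcrh at -0.41 and Cox6a2 at -1.09, the heart and muscle form of a complex IV subunit. Among ATP synthase subunits 2 of 19 (10.5%) were called, and both encode the same membrane ring protein: Atp5g1 was higher in CD29hi by 0.98 (limma adjusted p = 0.00802) and Atp5g2 lower, at -0.76 (0.0136). Atp5g1 read 8.77 and 8.88 in CD29hi of WT, 9.32 and 8.97 in CD29hi of KO, and 7.7 to 8.12 in CD29lo, so its groups did not overlap.

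The counts of the other lists are to be read against the same 22.9% of all genes, with 12.2% higher and 10.8% lower. Assembly factors had 6 higher and 2 lower of 39 called (20.5%), led by Ecsit at 1.34 and Cox11 at 1.04. Import and carrier genes had 5 higher and 0 lower of 21 (23.8%), among them Timm50 at 0.88 and Slc25a4, an ADP/ATP carrier, at 0.71. The TCA cycle had 2 higher (Idh3g at 0.55, Dlat at 0.42) and 1 lower (Idh2 at -0.61) of 17, 17.6%. Glycolysis had 6 higher and 1 lower of 15 (46.7% called), with Ldhb, a lactate dehydrogenase subunit, at 3.27 (limma adjusted p = 0.000593) and the glucose transporter Slc2a1 at 0.76 (0.000732), against Aldoc at -2.23 (0.0103). Among regulators of mitochondrial biogenesis 0 were higher and 2 lower of 19 (10.5%): Ppargc1a, a coactivator of respiratory genes, read 3.58 to 4.7 in CD29hi and 5.06 to 6.46 in CD29lo, a difference of -1.59 (adjusted p = 0.0163), and Polg2 gave -1.28 (0.0132). The lowest CD29hi value of Ppargc1a was below background (3.835 to 3.943 in those arrays), so the size of its difference is uncertain. Mitochondrial ribosomal proteins had 7 higher and 2 lower of 63 (14.3%), a mixed list of antioxidant, uncoupling and mitochondrial shape genes 3 and 3 of 17 (35.3%), and cytosolic ribosomal proteins 0 and 2 of 22 (9.09%).

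How far a gene's probe sets gave the same sign varied. Of the 29 genes with more than 1 probe set above background in all arrays, all probe sets had the same sign between the gates in 21 and between the genotypes in 20. The probe sets of Ndufs4 ranged from -0.83 to 0.25 between the gates and those of Ndufb2 from -0.25 to 0.63, while those of Ndufv2 lay at 0.12 to 0.15 and those of Ndufb11 at -0.75 to -0.45.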

How the data were processed

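RNA of 8 pooled samples (4 groups of 2 arrays) was extracted with a PicoPure kit, amplified with a NuGEN kit for degraded RNA and hybridised to Affymetrix arrays, per the labels' protocols. The deposited values are the authors' log2 signals, with a median of 5.45 to 5.67 per array and a lowest value of 0.0; the normalization behind them is not given in the sources used here, and any scaling makes a level relative to the rest of the array. Of 45101 probe sets, 34958 had 1 gene symbol, 932 several and 9211 none in the platform annotation. Each gene took its probe set with the highest mean, and genes with a mean under 3.51 (25th percentile) were left out, leaving 14598. Differences were fitted with limma 3.58.1 (R 4.3.3; lmFit, eBayes with a trend, 4 groups, 4 residual degrees of freedom) and checked on simulated data. Errors are limma's standard errors. Only 2 arrays a group limit the precision. The labels call the replicates biological, and the p-values measure the spread between these pools.

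The replicate numbers were checked for pairing. Deviations from the group means correlated at 0.00563 to 0.321 between same-numbered arrays, all positive but not all above 0.1. The labels do not tie the numbers to the paired sets, so the arrays were fitted unpaired, with a fit that blocks on the replicate number given below. Whether the shift of fibroblast genes between the replicate numbers reflects a pairing was not tested. Genes named in the text were those called in any comparison, those without overlap in both gates or genotypes, the lowest and highest of each complex, and list genes past the threshold; genes beyond these were chosen after their values were seen. The genes, lists and rules were chosen with earlier results of these data known. Alternatives were quantile normalization, other filters and probe-set rules, array weights, blocks and leaving out each array; leaving out probe sets of shared sequence was added after seeing the data. The 10 genes without a promoter window have no sequence shown.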

Additional observations from a re-analysis of the deposited data

Results flagged for a closer look

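In 3 of the 46 genes the KO minus WT difference had opposite signs in the 2 gates with no overlap of the arrays in either, 6.52% against 4.72% of all genes. Ndufa1, a small membrane subunit of complex I, gave -0.34 in CD29hi and 0.23 in CD29lo, a difference of -0.57. Ndufs8 gave -0.3 and 0.38, a difference of -0.68. Its CD29lo value rests on the chosen probe set and the next brightest (0.39): the other 4 gave -0.1 to 0.0, and without probe sets of shared sequence it was -0.04. Uqcrc2 gave -0.26 and 0.08, a difference of -0.34. Read the other way, Uqcrc2 was 0.18 higher in CD29hi than CD29lo in WT and -0.16 in KO, the same difference of -0.34. The difference itself was tested as limma's interaction term and did not pass for any of the 3 genes (adjusted p = 0.961).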

How the results depend on the processing

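No alternative gave a called gene in KO against WT or its interaction, arrays left out one at a time included (0 to 0). The medians of those differences ranged, with 1 array left out, from -0.33 to -0.12 in CD29hi, -0.112 to -0.012 in CD29lo, -0.178 to -0.101 averaged and -0.268 to -0.068 for the interaction. Between the gates, leaving out 1 array gave 0 to 5 called genes in WT (medians 0.085 to 0.22), 1 to 6 in KO (0.012 to 0.057) and 5 to 11 averaged (0.048 to 0.136); the 5 came without KO CD29hi replicate 1. In WT, where 3 were called, a filter at the 50th percentile gave 6, and the mean of probe sets, eBayes without a trend, only the arrays compared, or shared-sequence probe sets left out gave 1 each. In KO, where 6 were called, eBayes without a trend gave 0, and the median of 0.053 turned to -0.056 with the mean of probe sets and -0.042 without shared-sequence probe sets. Averaged over genotypes, Cox4i1, Ndufa7 and Ndufs8 were called in all 18 alternatives. Cycs was lost with the mean of probe sets (limma adjusted p = 0.161), Sdhb without a trend (0.0601), and Uqcrq (0.729), Ndufa12 (0.723) and Sdhd (0.104) without shared-sequence probe sets. In that last setting the probe set used was above background in only 5 arrays for Uqcrq and 3 for Ndufa12.

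With the replicate number as a block, 4 genes were called in WT, 7 in KO and 10 averaged, and 0 in KO against WT; Cox4i1 in WT (adjusted p = 0.0429) and Uqcrq in KO (0.0371) were gained. A random block took the same-numbered arrays of a genotype as 1 gland pool, which the labels do not state. Its correlation was 0.0172, which cannot show whether a true pool has an effect. Uncalled KO minus WT differences in CD29lo changed sign for Cox5b (0.12) and Sdha (0.17) with the mean of probe sets. That of Ndufs8 did so without shared-sequence probe sets (-0.04). Probe sets above background in only 5 arrays gave 1.48 in Cox5b and 1.43 in Sdha. The remaining probe sets gave -0.32 to -0.08 in Cox5b and -0.29 to -0.18 in Sdha. The cause of the changes was not tested.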
